A study of Caenorhabditis elegans with 3 samples.

Results

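The 10 genes described here carry Wnt signalling and asymmetric cell division in the nematode Caenorhabditis elegans: the Dishevelled genes mig-5, dsh-1 and dsh-2, the ligand genes lin-44 and egl-20, the Frizzled receptor gene lin-17, the TCF gene pop-1 and the beta-catenin genes sys-1, bar-1 and wrm-1. They were chosen by name and not by a measured value, but with earlier results of these data known. They are 10 of 19973 protein-coding genes on the nuclear chromosomes. The regions described are those of chromatin immunoprecipitation sequencing (ChIP-seq) for EGL-27 whose summit, the position of highest signal, lay in a gene's body or within 5 kb of it. The larvae were whole first-stage (L1) animals of mixed sex from strain OP177, whose genotype is unc-119(ed3) III with the transgene wgIs177. Every animal of the study therefore carried the unc-119 allele and a fusion of EGL-27 to C-terminal GFP and FLAG tags. There were 3 biological replicates of 1 group, set against 1 shared control alignment, with no second genotype, stage or treatment, so no test between conditions could be made. A whole larva mixes all tissues, so a region bound in a few cells and one bound weakly in many cannot be told apart. The labels used here name no promoter for the fusion. No expression was measured, so nothing here says whether any of these genes is transcribed in the larvae.

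In Wnt signalling, a secreted ligand binds a Frizzled receptor, the receptor acts through Dishevelled inside the cell, and beta-catenins then act with a TCF factor on target genes. Many dividing cells of the C. elegans larva use a form of the pathway in which the daughters inherit different amounts of the TCF factor POP-1 and the beta-catenin SYS-1 in their nuclei and so take different fates. EGL-27 carries a GATA-like zinc finger and resembles the MTA proteins of NuRD, a chromatin remodelling complex, and its gene is known from mutants with disturbed cell polarity and cell migration.

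The sequences below are those around the highest summit of each of the 3 Dishevelled genes and of bar-1, shown because mig-5 alone of these 4 had a peak in the thresholded list. Each line gives 100 bases either side of the summit, in build ce11 (WBcel235, RefSeq genome sequence), 5′ to 3′ on the minus strand, which is the strand of all 4 genes. The mig-5 window is chrII:8185089-8185289, and its capitals mark the 30 bases that span the summits of the 3 replicates. The dsh-1 window is chrII:5221742-5221942 and the dsh-2 window chrII:5079712-5079912. The bar-1 window is chrX:7173330-7173530. In dsh-1 and bar-1 the capitals mark matches to 2 of the motifs described further on, TGATAA and GAGAGA, read on either strand, so that TCTCTC and TTATCA in the bar-1 line are matches on the opposite strand.
mig-5: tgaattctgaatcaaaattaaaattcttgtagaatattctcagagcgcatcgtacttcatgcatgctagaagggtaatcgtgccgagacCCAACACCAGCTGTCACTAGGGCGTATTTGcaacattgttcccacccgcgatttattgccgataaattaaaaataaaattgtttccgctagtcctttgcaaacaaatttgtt
dsh-1: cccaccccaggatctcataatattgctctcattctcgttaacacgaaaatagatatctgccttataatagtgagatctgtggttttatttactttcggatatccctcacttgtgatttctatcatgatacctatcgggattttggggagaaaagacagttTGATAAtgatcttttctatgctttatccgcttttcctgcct
dsh-2: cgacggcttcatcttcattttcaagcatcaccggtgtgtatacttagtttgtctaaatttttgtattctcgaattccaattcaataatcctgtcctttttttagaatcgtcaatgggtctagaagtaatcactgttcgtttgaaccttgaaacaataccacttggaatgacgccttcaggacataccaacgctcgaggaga
bar-1: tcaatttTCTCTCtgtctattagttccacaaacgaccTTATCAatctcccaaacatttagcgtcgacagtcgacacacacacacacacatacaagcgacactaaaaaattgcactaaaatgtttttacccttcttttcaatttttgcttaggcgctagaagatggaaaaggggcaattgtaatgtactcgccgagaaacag

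EGL-27 regions that passed the authors' irreproducible discovery rate (IDR) threshold lay at 2 of the 10 genes, mig-5 and sys-1. Across all protein-coding genes the share with such a peak in the body or within 5 kb was 6.08% (1214 of 19973). mig-5 had 1 IDR peak, in the promoter it shares with the chaperonin gene cct-1, and sys-1 had 2, each closer to the start of another gene than to its own. The other 8 genes, both ligand genes, the receptor gene, the TCF gene and the other beta-catenin genes among them, had only regions of the longer relaxed list, which mixes peaks with background. A count of 2 in 10 is given as a description, with no chance test.

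Each region has a signal value, the authors' own measure of its height on a scale that is not stated, used here only to order regions inside 1 list. The IDR list held 524 regions with signals from 28.9 to 166.1 and a median of 38.3, and they were exactly the 524 highest regions of the list made from the 3 replicates pooled. The relaxed lists held 30000 regions pooled, 30000 in replicate 1, 30000 in replicate 2 and 13516 in replicate 3. Read depth is unknown, because the lists hold no counts. Because the lists are of unequal length, a difference in rank between them cannot be read as a change between replicates.

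mig-5 (WBGene00003241, chrII:8182323-8185023, minus strand) encodes a Dishevelled protein that acts in the polarity of dividing cells and in neuroblast migration. Its IDR peak, chrII:8185011-8185366, had its summit at 8185189, in intergenic sequence 166 bp upstream of the mig-5 start. Intergenic here means outside every protein-coding gene. The pooled signal was 64.1, rank 55, and 10.5% of the IDR regions and 0.183% of the pooled regions were at least as high. In the replicate lists the region had a signal of 19.7 in replicate 1, 22.8 in replicate 2 and 21.2 in replicate 3, at ranks 52, 111 and 103. All 3 replicates thus had this region near the top of their own list, and no other gene of the 10 had a region as high in any of them. The replicate summits lay 177, 148 and 164 bp upstream of the start, a spread of 29 bp. Over the 482 IDR peaks found in all 3 replicate lists the median spread was 69 bp, and 16.2% had a spread of 29 bp or less. The start of cct-1 (WBGene00000377, chrII:8185443-8187601, plus strand), which encodes a subunit of the CCT chaperonin, lies 254 bp from the same summit, and 419 bases separate the starts of the 2 genes. The peak is upstream of both, so its gene assignment is not settled by position. Of the 524 IDR summits, 231 lay within 1000 bp upstream of a protein-coding start, and 62 (11.8%) lay so between starts on both strands, as this one did. The other 6 pooled regions at mig-5 had signals from 6.03 to 10.5, at ranks 7055 to 26522, and lay in introns or coding exons of neighbouring genes, among them cct-1 itself. None of the 6 was found in all 3 replicate lists.

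**Figure D1:**
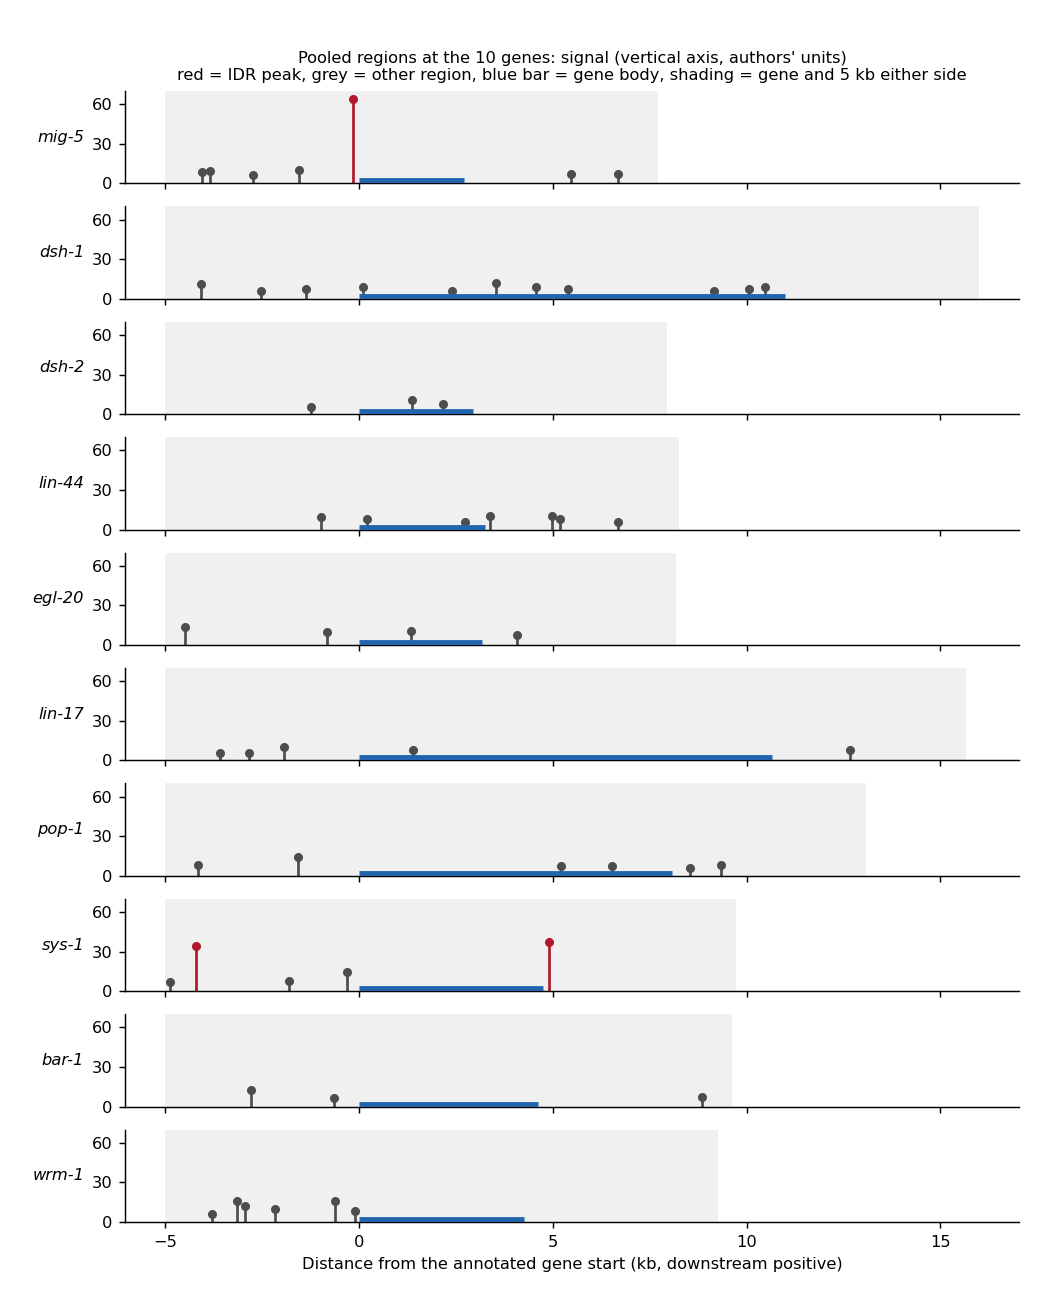
Signal of each pooled region (vertical axis, authors' units) by the distance of its summit from the annotated gene start (horizontal axis, kb), 1 panel for each of the 10 genes, with IDR peaks in red, other regions in grey, the gene body as a blue bar and the 5 kb either side shaded. The mig-5 peak at 64.1 and the 2 sys-1 peaks at 37.45 and 34.5 stand above the 54 other regions, the highest of which is 16.04 at wrm-1.

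By the log2 signals in the 3 replicate lists, the IDR peaks most like the mig-5 peak were at ppm-2, ska-3 and rpl-6, out of 481 other peaks with a signal in all 3. The measure was the Euclidean distance over the 3 replicates, 0.07 for ppm-2, 0.17 for ska-3 and 0.20 for rpl-6. The ppm-2 peak had replicate signals of 19.2, 21.9 and 21.3 and a pooled signal of 60.5, 1042 bp upstream of the start of this protein phosphatase gene. The ska-3 peak had replicate signals of 19.8, 23.6 and 23.7 and a pooled signal of 72.8. It lay 122 bp upstream of ska-3, a spindle and kinetochore gene, and within 1 kb of the start of the ribosomal protein gene rps-12. The rpl-6 peak had replicate signals of 20.4, 22.8 and 18.6 and a pooled signal of 62.4, 351 bp upstream of this ribosomal protein gene. The window of ppm-2, not printed, held TGATAA. Its GC content was 51.2%, against 41.3% for ska-3, 36.8% for rpl-6 and 38.8% for mig-5. The windows of ska-3 (chrIII:5679027-5679227, minus strand) and rpl-6 (chrIII:7207996-7208196, plus strand) are given in the same way for comparison with mig-5. Both are upstream of a start, and the capitals in ska-3 mark CTTTGA.
ska-3: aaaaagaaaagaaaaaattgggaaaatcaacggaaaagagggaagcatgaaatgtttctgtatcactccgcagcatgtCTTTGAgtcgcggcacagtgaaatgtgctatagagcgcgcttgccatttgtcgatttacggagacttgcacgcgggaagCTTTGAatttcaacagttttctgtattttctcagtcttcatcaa
rpl-6: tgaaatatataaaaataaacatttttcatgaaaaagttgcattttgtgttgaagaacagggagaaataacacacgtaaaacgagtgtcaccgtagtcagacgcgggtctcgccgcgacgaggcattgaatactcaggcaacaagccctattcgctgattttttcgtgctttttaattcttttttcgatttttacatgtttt

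The letters of 7 motifs were searched on both strands within 100 bp of a summit. The repeat GAGAGA, the E-box form CACGTG and the GC-rich CCGCCC were searched. So were the GATA-type motif TGATAA, its variant AGATAA, the TCF-type motif CTTTGA and its variant CTTTGT. Other E-box forms, such as the CAGCTG within the mig-5 capitals, were not searched. Matches may overlap, but a match counts for 1 motif only. None of the 7 was in the mig-5 window, and 23.7% of IDR windows and 41.2% of pooled windows held none of them. The absence says only that these letters are not in this window. GAGAGA was in 56.5% of IDR windows and 18% of pooled windows, TGATAA in 7.25% and 17.3%, and AGATAA in 7.82% and 11.3%. CTTTGA was in 6.87% of IDR windows and 14.9% of pooled windows, and CTTTGT in 12.0% and 11.8%. CACGTG was in 11.3% and 4.27%, and CCGCCC in 11.5% and 4.68%. The mig-5 window had a GC content of 38.8%, against a median of 47.3% in IDR windows and 37.8% in pooled windows, and 10.7% of IDR windows were no higher. Among 11 windows, those of the highest region of each gene and of the second sys-1 peak, 6 held none of the motifs: mig-5, dsh-2, egl-20, lin-17, wrm-1 and the first sys-1 peak. GAGAGA was in 4, at lin-44, pop-1, bar-1 and the second sys-1 peak, which held it at 2 positions. TGATAA was in 2, at dsh-1 and bar-1. AGATAA was in 2, at pop-1 and the second sys-1 peak. CTTTGA was in 1, at lin-44, and CCGCCC in 1, at the second sys-1 peak. Neither CACGTG nor CTTTGT was in any of the 11.

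The other Dishevelled genes had no IDR peak, and the nearest was 96759 bp from dsh-1 and 24087 bp from dsh-2. dsh-1 (WBGene00001101, chrII:5214400-5225384, minus strand) had 11 pooled regions, a number reached by 1.86% of protein-coding genes, in the longest window of the 10, 21.0 kb. The highest, 12.0 at rank 4842, was in an intron of dsh-1 3542 bp past the start and 107 bp upstream of the noncoding RNA gene C34F11.15. Its replicate signals were 6.11, 5.11 and 3.08, at ranks 3216, 15724 and 7159. It was found in all 3 lists, but 39.9% of protein-coding genes had a region at least as high. The next highest, 10.9, lay 4094 bp upstream of dsh-1 and 418 bp upstream of EGAP2.2, with 2.83 in replicate 1 and 4.08 in replicate 2. Another region of dsh-1 lay in a coding exon 101 bp past the start, with a signal of 9.06, and only replicate 2 held it, at 6.48. Replicate 2 was highest 4746 bp past the end of dsh-1, in a coding exon of ampd-1, at 9.48. dsh-2 (WBGene00001102, chrII:5078233-5081174, minus strand), known for its part in asymmetric divisions of the embryo and the gonad, had 3 pooled regions. The highest was 10.9, rank 6376, in an intron 1362 bp past the start, and replicate 2 alone held it, at 4.47. Replicate 2 was highest in a coding exon of dsh-2, 2335 bp past the start, at 10.04, and replicate 1 in an intron of pld-1, 3226 bp upstream, at 4.54. The list of replicate 3 had no region at dsh-2. The promoter position of the mig-5 peak thus had no counterpart among the IDR peaks at the other 2 Dishevelled genes.

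The ligand genes had no IDR peak, and at both the highest region lay in a coding exon of another gene. lin-44 (WBGene00003029, chrI:4126056-4129310, plus strand) encodes a Wnt made in the tail that orients the division of the tail T cells. It had 7 pooled regions, from 5.66 to 10.2, and the highest lay in a coding exon of let-504, 1710 bp past the end of lin-44, with replicate 2 alone holding it, at 5.82. A region 978 bp upstream of the lin-44 start had a pooled signal of 9.86, and one in its first part, 205 bp past the start, had 8.14. That second region was held in replicate 1 at 4.40 and in replicate 2 at 5.03, and in replicate 3 it was not listed. Replicate 2 was highest in a coding exon of srrt-1, at 10.6 and rank 1320, and replicate 3 beside the start of srrt-1, at 2.54. egl-20 (WBGene00001188, chrIV:9812357-9815532, minus strand) encodes the Wnt that guides the migrating Q neuroblasts. It had 4 pooled regions, from 7.52 to 13.7, and the highest lay 4494 bp upstream in a coding exon of catp-6, with the start of the collagen gene col-123 nearest. Replicate 2 alone held that region, at 7.95. Replicate 1 had its highest egl-20 region elsewhere, in an intron of egl-20 1342 bp past the start, at 8.29 and rank 1048, where the pooled signal was 10.4. A region 828 bp upstream of the egl-20 start had a pooled signal of 9.54, with 5.8 in replicate 1 and 3.97 in replicate 2. The lowest, 7.52 at 891 bp past the end, was 2.52 in replicate 1 and 5.27 in replicate 2. The list of replicate 3 had no region at egl-20. The replicates thus differed in which position at egl-20 was highest.

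lin-17 (WBGene00003006, chrI:2706883-2717549, plus strand) encodes the Frizzled receptor through which LIN-44 acts in the T cells. It had 5 pooled regions, and the highest was 10.3, rank 7442, in intergenic sequence 1928 bp upstream of the start. Replicate 2 alone held it, at 8.85. Replicate 1 was highest in an intron of lin-17, at 4.75, and replicate 3 in a coding exon of lin-17, at 2.79. No pooled region of lin-17 was found in more than 1 replicate list. pop-1 (WBGene00004077, chrI:2822243-2830311, minus strand) encodes the TCF factor at the end of the pathway. Its highest pooled region was 14.25, rank 2949, in intergenic sequence 1586 bp upstream of the start, with the noncoding RNA genes W10C8.8 and W10C8.12 starting 592 and 298 bp away. Replicate 1 held the region at 4.59 and replicate 2 at 7.83, and replicate 3 did not hold that summit. The highest pop-1 region of replicate 3 overlapped the pooled region, with its own summit 1803 bp upstream of the start, at 4.72. Replicate 1 was highest elsewhere, 1454 bp past the end of pop-1 in the 3' UTR of W03D8.3, at 7.11 and rank 1877. The nearest IDR summit was 67088 bp from lin-17 and 182448 bp from pop-1, the farthest of the 10.

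sys-1 (WBGene00006379, chrI:9980063-9984794, minus strand) encodes the beta-catenin that works with POP-1 in asymmetric division, and it was the only gene of the 10 with 2 IDR peaks, against 0.531% of protein-coding genes with 2 or more. The first, chrI:9979720-9980075, had a pooled signal of 37.45, rank 277, and its summit lay 165 bp past the end of sys-1 and 236 bp upstream of the start of eif-3.C, which encodes a translation initiation factor subunit. Its replicate signals were 10.4, 18.3 and 7.82, at ranks 479, 204 and 1162. The second, chrI:9988817-9989172, had a pooled signal of 34.5, rank 352, and lay 4201 bp upstream of sys-1. It was 137 bp upstream of the histone gene his-68, 232 bp upstream of the histone gene his-67 and 807 bp upstream of the Argonaute gene alg-5. Its replicate signals were 8.62, 12.2 and 13.3, at ranks 901, 763 and 333. Within the lists of replicates 1 and 2 the first peak stood above the second, and within that of replicate 3 the second stood above the first. Both peaks were found in all 3 lists, with replicate summits 39 and 30 bp apart. The region nearest the sys-1 start, 304 bp upstream of it, was not an IDR peak: its pooled signal was 14.4, with 4.62 in replicate 1, 2.33 in replicate 3 and no region in replicate 2. If each peak counted only for the closest start, sys-1 would have neither of them.

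bar-1 (WBGene00000238, chrX:7166005-7170625, minus strand) encodes the beta-catenin of the canonical pathway, which acts on Hox genes in the Q neuroblasts and the vulval cells. It had 3 pooled regions, and the highest was 12.4, rank 4428, in intergenic sequence 2805 bp upstream of the start, the window printed above. Replicate 1 held it at 8.89, rank 813, and replicate 3 at 2.93, rank 7852, while replicate 2 did not hold it. The noncoding RNA gene F43E12.8 starts 644 bp from that summit. For the other 2 regions, 7.08 and 6.85, no replicate region held the pooled summit. The 6.85 region lay 653 bp upstream of the start, and replicate 1 had an overlapping region with its own summit 459 bp upstream, at 7.18 and rank 1811. Replicate 2 was highest in a coding exon of pgp-10, 851 bp past the end of bar-1, at 5.70. wrm-1 (WBGene00006943, chrIII:5722850-5727115, plus strand) encodes the beta-catenin that helps lower nuclear POP-1. All 6 of its pooled regions lay outside protein-coding genes and upstream of the start, from 96 to 3803 bp away, with signals from 5.85 to 16.04. The highest, at 3158 bp, was 8.30 in replicate 2 and 4.04 in replicate 3 and was not held in replicate 1. It lay inside the noncoding RNA gene B0336.15. That gene has an entry on each strand, starting 45 bp (plus) and 90 bp (minus) away. The next, 15.7 at 632 bp, was 3.82 in replicate 1 and 3.66 in replicate 2. The highest wrm-1 regions of replicates 1 and 3 lay close to it without holding its summit, at 868 bp upstream with 5.23 in replicate 1 and at 846 bp upstream with 6.45, rank 1695, in replicate 3. A region at 2948 bp, with a pooled signal of 11.9, was the only one of the 6 found in all 3 lists, at 2.63, 8.30 and 2.82, and the replicate 2 region that held it was the one that held the highest summit as well. wrm-1 had the highest region outside the IDR list among the 10 genes, and 21.2% of protein-coding genes had one at least as high.

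**Figure D2:**
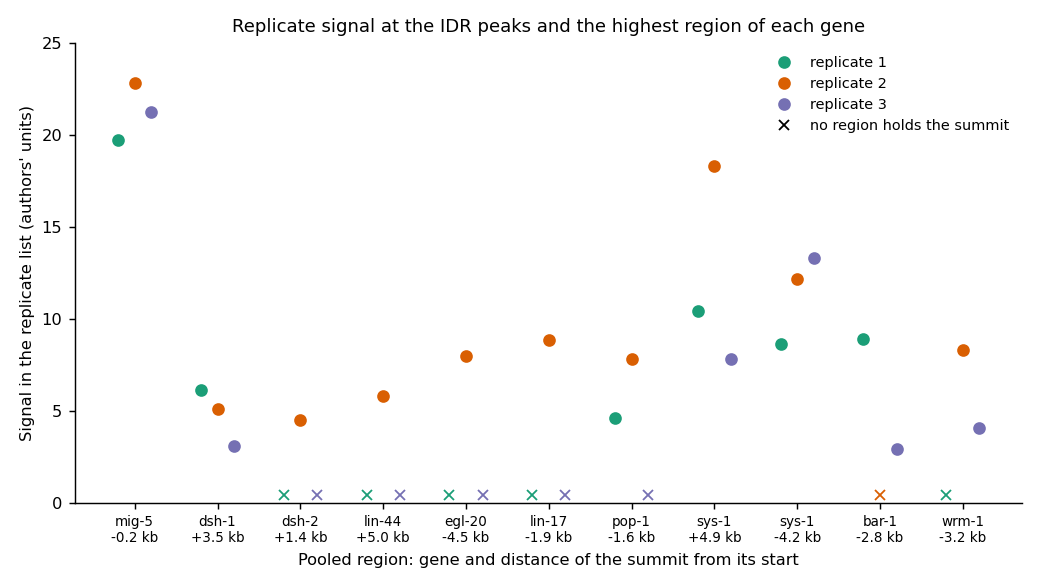
Signal in each replicate list (vertical axis, authors' units) at the 3 IDR peaks and at the highest pooled region of each other gene (horizontal axis, gene and distance of the summit from its start in kb), with a cross where no region of that list holds the pooled summit. Only mig-5, dsh-1 and the 2 sys-1 positions have a value in all 3 replicates, and mig-5 lies between 19.7 and 22.8.

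Every one of the 10 genes had a pooled region in its body or within 5 kb, as did 95.7% of all protein-coding genes, so the presence of a relaxed region separates no gene from the rest. The lists of replicates 1 and 2 gave 10 of 10 each, against 96.3% and 96.4% of all genes, and that of replicate 3 gave 8 of 10, against 73.6%. A pooled region found in all 3 replicate lists was present at 4 of the 10 genes, mig-5, dsh-1, sys-1 and wrm-1, against 18.3% of all genes. These were 5 regions of the 57 at the 10 genes, while 17 regions were found in exactly 2 lists, 24 in 1 and 11 in none. In the whole pooled list 6.08% of regions were found in all 3, and among IDR peaks 92.0%. The 524 highest regions of each replicate list reached 2 of the 10 genes, mig-5 and sys-1, in each of the 3 replicates, against 5.91%, 5.67% and 5.85% of all genes. For sys-1 the region was the first peak, beside eif-3.C, in replicates 1 and 2, and the second, beside his-68, in replicate 3, where the first had rank 1162. Within 1 kb or 2 kb, replicate 3 gave 1 of the 10 genes, and with the 262 highest regions replicates 1 and 3 gave 1 each. For these settings the share of all genes was not computed. The IDR and replicate lists come from the same experiment and are not independent.

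**Figure D3:**
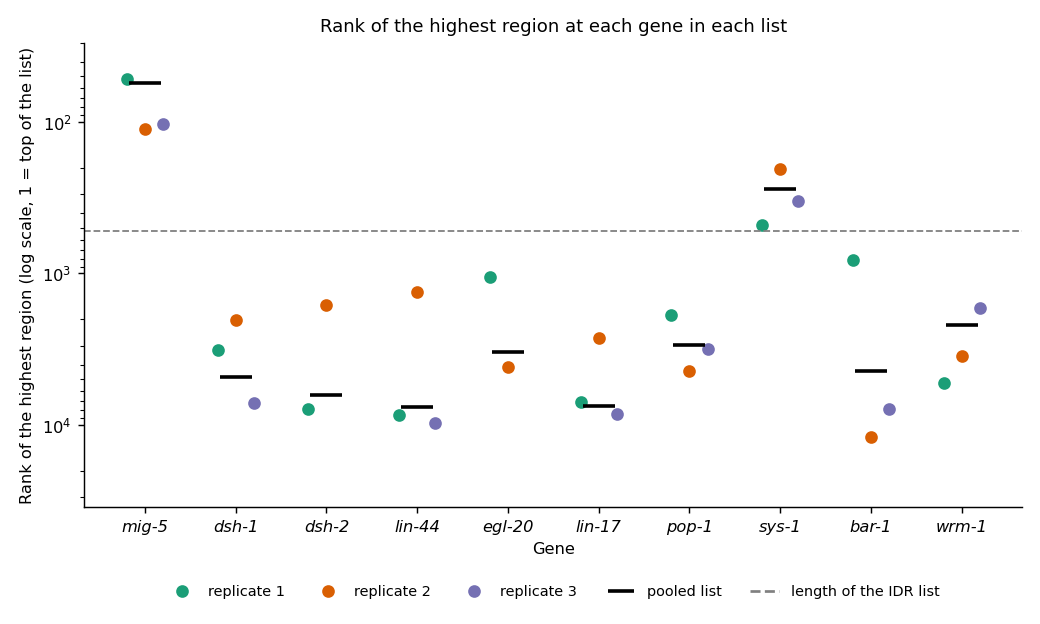
Rank of the highest region at each of the 10 genes (horizontal axis) in the 3 replicate lists (coloured points) and the pooled list (black bars), on a log scale with the top of the list upward; the dashed line is rank 524, the length of the IDR list. mig-5 lies between ranks 52 and 111 and sys-1 between 204 and 479 in the replicates (its first peak in replicates 1 and 2, its second in replicate 3), and the 8 other genes between 813 and 12039 where a region is listed.

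By highest pooled signal the order was mig-5 (64.1), sys-1 (37.45), wrm-1 (16.04), pop-1 (14.25), egl-20 (13.7), bar-1 (12.4), dsh-1 (12.0), dsh-2 (10.9), lin-17 (10.3) and lin-44 (10.2). The median of the 10 was 13.1, against 11.0 over all protein-coding genes with a region. A region at least as high as that of mig-5 was present at 0.591% of all protein-coding genes, and as that of sys-1 at 3.25%. For the other 8 this share ran from 21.2% at wrm-1 to 55.5% at lin-44. Within each replicate list mig-5 had the highest region of the 10 genes and sys-1 the next, through its first peak in replicates 1 and 2 and its second in replicate 3. Of the other 8 genes, the one with the highest region was bar-1 in replicate 1, lin-44 in replicate 2 and wrm-1 in replicate 3, so the pooled order of those 8 was not kept from list to list. The windows of the 10 genes were a little longer than usual, with a median of 14.4 kb against 12.0 kb, and held a median of 3.36 pooled regions for each 10 kb against 2.78.

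**Figure D4:**
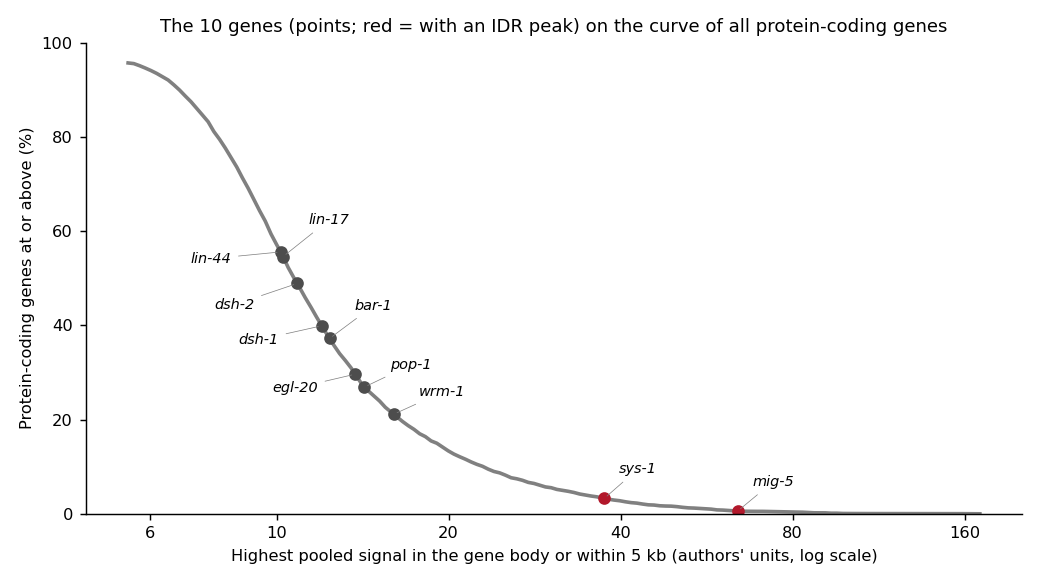
Share of all protein-coding genes (vertical axis, percent) whose highest pooled region is at or above a given signal (horizontal axis, authors' units, log scale), with the 10 genes as points on the curve, red where the gene has an IDR peak. mig-5 lies at 0.591% and sys-1 at 3.25%, and the other 8 between 21.2% and 55.5%.

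By position, 29 of the 57 pooled summits were upstream of the gene they were counted for, 16 in its body and 12 downstream, and 7 lay within 1000 bp upstream of its start. These classes were set by protein-coding genes only, so an intergenic summit may lie in a noncoding RNA gene. Intergenic sequence held 26 (45.6%), coding exons 16 (28.1%) and introns 13 (22.8%), against 40.9%, 24.4% and 29.5% of all pooled summits. The 3 IDR peaks at the 10 genes were all intergenic, as were 72.9% of IDR summits, of which only 0.763% lay in coding exons. For 29 of the 57 regions the nearest protein-coding start was that of the gene itself. The relaxed regions of these genes thus lay about as often in coding exons as the relaxed list as a whole, unlike the IDR peaks.

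Of 20 other genes of the pathway, 1 had an IDR peak in its body or within 5 kb, a share near the 6.08% of all protein-coding genes. It was lit-1, which encodes the Nemo-like kinase that acts on POP-1, and the peak lay in an intron 15746 bp past the start, with the start of W06F12.2 nearer at 13952 bp. Its pooled signal was 29.99, rank 484, with 7.94 in replicate 1, 18.1 in replicate 3 and no region in replicate 2. The next highest regions were at gsk-3, the kinase gene of the destruction complex, with 23.4, at the Wnt secretion gene mig-14, with 21.0, and at the adhesion beta-catenin gene hmp-2, with 20.7. Of these, gsk-3 and mig-14 had their region in all 3 replicate lists, and in each case another gene had the nearest start. The 20 genes had 103 pooled regions, 6 of them in all 3 lists, again near the 6.08% of the whole pooled list, and vps-35 had no pooled region. Their highest signals ran from 7.11 to 29.99 with a median of 14.3, so that mig-5 and sys-1 had higher regions than any of the 20, while the other 8 genes lay within their range.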

How the data were processed

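The samples were 3 biological replicates of 1 group, numbered as in the labels. The authors deposited relaxed region lists for each replicate and for the replicates pooled, and 1 thresholded IDR list. The signal value is the authors' own measure of each region, deposited on a scale that is not stated, and the deposited summit offset gave each position. Which aligner and caller the authors used is not given in the sources used here. Depth is unknown. The ce10 lists and signal tracks were not analysed here.

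Coordinates are ce11, 1-based. Gene models were those of Ensembl 115 on WBcel235, which is ce11, and bases were read from the RefSeq copy of it. A region belonged to a gene if its summit lay in the body or within 5 kb, and was found in a replicate if a region of that list held the pooled summit. The 10 genes and the list of 20 were chosen with earlier results of these data known. Named were the 10 genes, pathway genes with an IDR peak and the 3 next highest, genes with the nearest start or a start within 1 kb, and the 3 peaks most like that of mig-5. Counting was checked on simulated data. No test was run. The alternatives were other windows, positions, thresholds, list lengths, assignments, overlaps, backgrounds and motif windows, and leaving out each replicate. Python 3.11.15, numpy 2.4.6, pandas 2.3.3 and matplotlib 3.10.9 were used.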

Additional observations from a re-analysis of the deposited data

How the results depend on the processing

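mig-5 had an IDR peak under every alternative run, and sys-1 did not under some. The count of the 10 genes with an IDR peak, 2, was 1 with the 262 highest IDR peaks, 1 when each peak went to the nearest start, and 1 to 2 when a replicate was left out (216, 200 and 187 IDR peaks that the highest regions of the remaining replicates held, without a new IDR run), with sys-1 lost without replicate 1 or replicate 2. The count of the other 20 pathway genes, 1, was 2 within 10 kb, where mom-5 joined, 0 with the higher IDR peaks, 0 by nearest start and 0 to 0 with a replicate left out. The share of all protein-coding genes, 6.08%, was 2.50% within 1 kb, 3.49% within 2 kb, 10.04% within 10 kb, 3.03% with the higher IDR peaks, 2.27% by nearest start and 2.27% to 2.50% with a replicate left out. The 57 pooled regions became 27, 37 and 92 within 1, 2 and 10 kb, and 28 among the 13516 highest. The 5 found in all 3 lists became 3 with lists of equal length and 6 to 19 with a replicate left out, 19 without replicate 3, whose list is the shortest. Among the highest regions of single replicates, 262 in place of 524 gave 1 gene in replicate 1 and 1 in replicate 3. The doubled number gave 4 in replicate 1, with egl-20 at the last rank included, 1048, and 2 in each of replicates 2 and 3. Windows of 1 kb and 2 kb gave 1 and 1 in replicate 3. The share of all protein-coding genes was not computed for these settings of the replicate lists, so these counts have no background beside them. Among the alternatives for these counts and shares, 29 moved the value and 28 left it the same or within a fixed factor of it. That factor was wide enough to hold the change from 5 to 7 regions without replicate 2. Counts and shares have no direction, so a reversal was not defined for them. The lists hold no read counts, so depth limits cannot be given. No paired analysis was possible because there is 1 group.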
